A study of Mus musculus with 6 samples.

Results

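The genes described here are 42 mouse genes of fatty acid oxidation and known PPARA targets, chosen by gene symbol out of 52323 genes counted in damaged hepatocytes (dHeps). All 42 had a row in the count table and passed the filter on low counts. The dHeps came from livers of AAV-TBG-Cre:Rosa-LSL-tdTomato mice injured with CCl4, carbon tetrachloride, a solvent that is toxic to the liver. In this line a Cre recombinase driven by the hepatocyte promoter TBG switches on the red marker tdTomato, so tdTomato marks cells that were hepatocytes when the virus was given. It does not remove other liver cells from a perfused preparation. The paper reports that, at best, nearly all cells isolated from such injured mice carried tdTomato. Cells of all 3 groups were kept for 16 days in serum-free Hepatocyte Maintenance Medium. The control group received the solvent DMSO. The 3C group received CID755673 at 50 µM, which blocks protein kinase D, and GSK429286A at 2 µM, which the paper names as an inhibitor of ROCK. This group also received ETC-1002 at 5 µM. The paper names ETC-1002 as an activator of AMPK, and it also blocks ATP citrate lyase once activated in liver cells. In the 5C group the same compounds at the same doses were joined by 2 µM forskolin, which activates adenylate cyclase, and 5 µM salidroside, a plant glucoside. Each group had 2 libraries, and the labels do not say whether these came from separate animals or cultures, so the p-values measure the spread between these libraries, which may be technical. The question put to the members was whether genes of each oxidation route differed between DMSO, 3C and 5C.

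PPARA is a nuclear receptor that is activated by fatty acids and is most active in the liver during fasting. It binds DNA as a pair with RXR and raises genes for fatty acid uptake, for beta-oxidation in mitochondria and peroxisomes, for omega oxidation in the endoplasmic reticulum and for ketone body synthesis. Acyl-CoA thioesterases, which release free fatty acid and CoA, and proteins of the lipid droplet surface are also among its targets. Hepatocytes burn fatty acids heavily, and these genes are part of the mature hepatocyte's programme.

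The PPARA and RXR pair is known to bind a direct repeat of the letters AGGTCA, with 1 base of any kind between both copies. The 1000 bases before the canonical start of each gene were searched on both strands of the GRCm39 genome. The looser pattern, AGGNCA repeated in the same way, was found before 1 of the 42 members, Acaa1b, and before 1.54% of 21752 protein-coding genes. The stretch closest to the AGGTCA repeat differed from it at no more than 2 letters in 12 members (28.6%) and in 12.7% of all genes searched, and at no more than 3 letters in 30 members (71.4%) and in 62.3%. This second search was added after the expression values had been seen. A match is a run of letters, and no binding was measured in these libraries.

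The stretches printed first belong to the members that were called higher in both cocktails, that lay within 2 letters of the repeat and whose stretch held no annotated exon. They are shown with the closest run in capitals, in the direction of the gene:
Acaa1b: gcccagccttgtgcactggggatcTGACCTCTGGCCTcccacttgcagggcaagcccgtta
Ehhadh: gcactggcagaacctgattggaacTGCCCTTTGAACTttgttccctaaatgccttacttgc
Acot1: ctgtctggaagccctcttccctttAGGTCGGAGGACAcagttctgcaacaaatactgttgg
Slc27a2: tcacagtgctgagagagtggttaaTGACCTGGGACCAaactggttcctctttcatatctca
The Acaa1b stretch lies at chr9:118987080-118987140 on the minus strand and is the only one here within 1 letter of the repeat. The Ehhadh stretch is at chr16:21607446-21607506 on the minus strand. Those of Acot1, at chr12:84055397-84055457, and Slc27a2, at chr2:126393590-126393650, are on the plus strand. The choice of stretches used the calls, and a link between the repeat and the calls was not tested. Cpt1a, Cpt1b, Slc25a20, Acadm, Acot2, Plin2 and Vnn1 also lay within 2 letters and were called in neither cocktail. Acot12, called in both, lay within 1 letter, but its stretch held an exon. The other members called in both cocktails lay at 3 or 4 letters.

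A run of neighbouring Cyp4a genes on the plus strand of chromosome 4 are shown because they hold nearly the same stretch close to their starts, with the closest run at 3 letters from the repeat:
Cyp4a10: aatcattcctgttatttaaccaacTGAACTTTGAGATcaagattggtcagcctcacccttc
Cyp4a31: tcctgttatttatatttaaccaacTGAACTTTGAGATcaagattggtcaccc
Cyp4a32: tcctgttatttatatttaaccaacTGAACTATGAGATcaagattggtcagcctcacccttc
They lie at chr4:115375361-115375421, chr4:115420766-115420817 and chr4:115458014-115458074, and the runs begin 76, 28 and 96 bases before the canonical starts. The same closeness was also found within the transcripts, of which Cyp4a10 shared 37% of its 50-base words with other genes, Cyp4a32 41.6% and Cyp4a31 21.5%.

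The 6 libraries held 65916573 to 69245895 estimated counts each. Members took 0.263% and 0.265% of the counts (2 DMSO libraries), 0.408% and 0.401% (3C) and 0.414% and 0.415% (5C). Levels within a gene are given as counts scaled to the library total (CPM), and levels between genes only as the deposited FPKM, which divide by gene length. A gene is said to have risen or fallen where the edgeR quasi-likelihood test gave a Benjamini-Hochberg adjusted p under 0.05 over the 19135 genes tested, and it is called higher or lower where its log2 fold change was also beyond 1. Values follow the order of the replicates.

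Markers of the cell types differed between groups as well. The summed CPM of 9 hepatocyte markers was 2327 to 2673 in DMSO, 10524 to 10959 in 3C and 9690 to 14240 in 5C, with 8 of 9 called higher in 3C and 7 of 9 in 5C. The marker that went the other way was Arg1, at 426 and 493 CPM in DMSO, 344 and 402 in 3C and 248 and 257 in 5C. Alb was the largest part of each sum, at 1357 and 1182 CPM in DMSO, 7402 and 7769 in 3C and 6766 and 10400 in 5C. The sum of 14 macrophage markers was 13620 to 14680 in DMSO, 4868 to 4880 in 3C and 3218 to 3273 in 5C, with 12 of 14 called lower in each cocktail. Cd14 went the other way, at 92.1 and 87.1 CPM in DMSO, 156 and 176 in 3C and 144 and 125 in 5C. Clec4f was low in every library, at 1.81 to 2.81 CPM. Lyz2 was the largest part of each sum, at 6024 and 6137 CPM in DMSO, 1821 and 1789 in 3C and 1099 and 1113 in 5C. The part of these shifts in the values of the members was not tested, and in bulk RNA fewer cells of a type and less RNA per cell cannot be told apart. Of the 6 adipocyte markers, Adipoq, Lep, Retn and Cfd were at or under 12 counts (the floor of 3 fragments) in every library. Fabp4 was at 34.4 to 59.2 CPM and made up nearly all of their sum.

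Both cocktails had higher levels of most members than DMSO. With 5C, 16 of 42 members were called higher and 0 lower, where 7.3% of all tested genes were called higher and 4.42% lower (11.7% in all). On adjusted p alone 35 members rose with 5C and 0 fell (15.6% and 13.1% of all genes, 28.7% together), and the median log2 fold change of the 42 was 0.83 beside 0.00413 over all genes. With 3C, 14 were called higher and 1 lower (5.83% and 3.62% of all genes, 9.45% together), 35 rose and 2 fell on adjusted p alone (12.7% and 11.8%, 24.5% together), and the median was 0.70 beside 0.00876. The 14 genes called higher with 3C were all among the 16 called with 5C, and the other two were Acaa2 and Acsl1. Both comparisons use the same DMSO libraries, so these counts are not independent. Both libraries of 5C lay above both of DMSO for 38 members and below for 2 (30.9% and 32.2% of all genes). For 3C the numbers were 39 and 2 (33.6% and 27.7%).

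**Figure D1:**
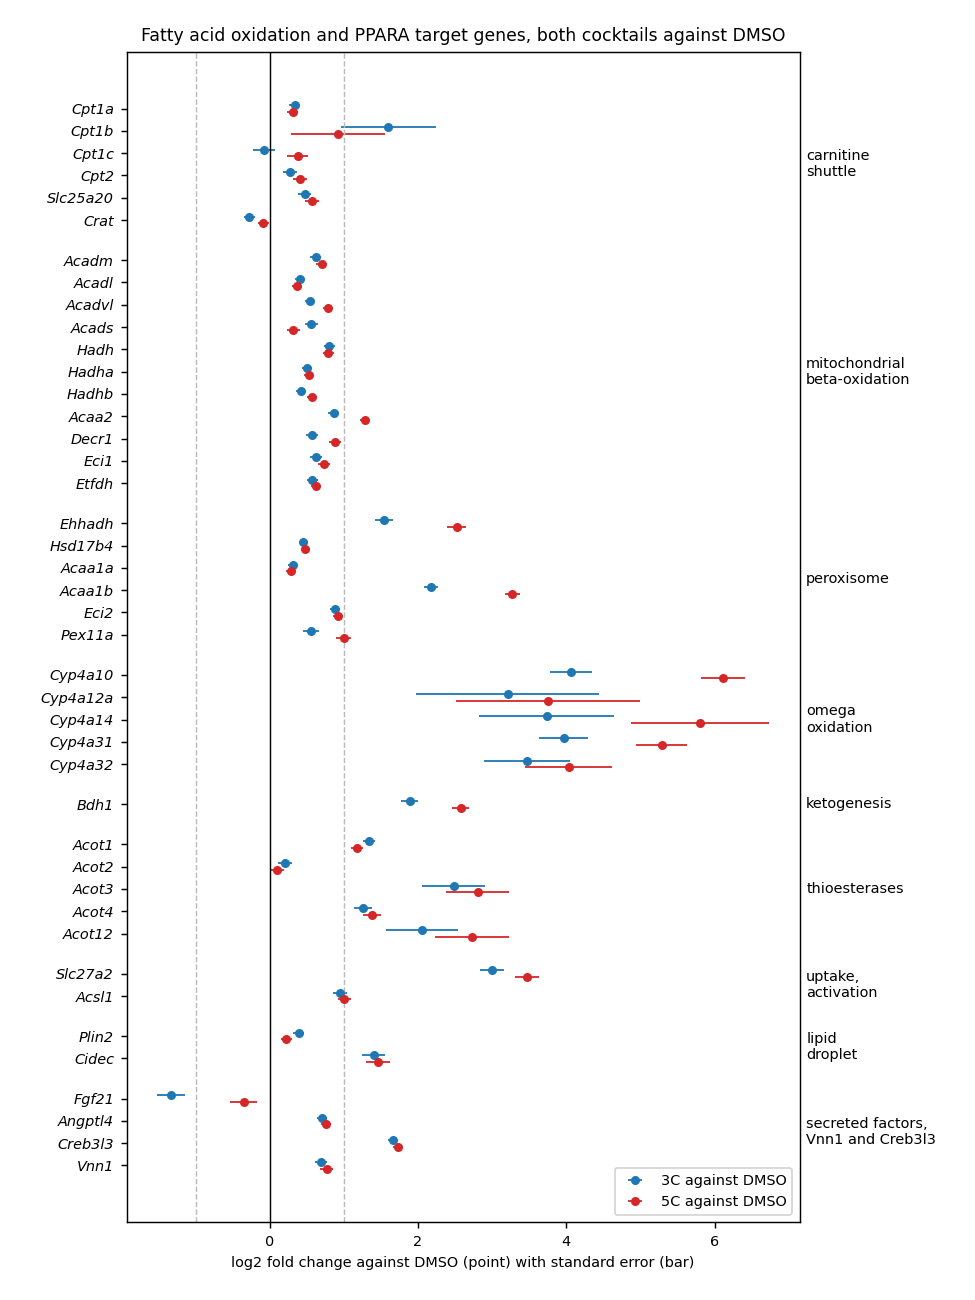
Log2 fold change of each of the 42 members against DMSO (horizontal axis), blue for 3C and red for 5C, with bars of 1 standard error and dashed lines at -1 and 1. Genes are grouped by role from top to bottom, and the 5 Cyp4a genes stand furthest to the right, with Cyp4a10 at 6.11 in 5C and 4.06 in 3C, while Fgf21 in 3C lies below -1.

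The size of the difference varied between roles. Median log2 fold changes with 5C and 3C were 5.29 and 3.74 for the 5 omega oxidation genes, 1.38 and 1.34 for the 5 thioesterases, 0.96 and 0.72 for the 6 peroxisomal genes, 0.70 and 0.56 for the 11 genes of mitochondrial beta-oxidation, and 0.39 and 0.31 for the 6 carnitine shuttle genes. With Cyp4a12a, the lowest of the 5, at its lower bound the omega oxidation medians are the same. Members of low level also had the larger folds. In the 21 members with the lower mean FPKM (0.0908 to 22.6) the median was 1.46 with 5C and 1.54 with 3C, and in the other 21 (23.7 to 297) it was 0.62 and 0.56.

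Entry of fatty acids into the cell and their first activation were represented by Slc27a2 and Acsl1. Slc27a2, a transporter and very long chain acyl-CoA synthetase that is also known to activate ETC-1002, stood at 12.8 and 9.30 CPM in DMSO, 90.5 and 90.4 in 3C and 109 and 133 in 5C. No DMSO library came near a treated one, and Slc27a2 was 8.02-fold higher with 3C (log2 fold change 3.00, SE 0.162, adjusted p = 1.56e-05) and 11.1-fold higher with 5C (3.47, SE 0.165, adjusted p = 5.64e-06). Acsl1, the main long chain acyl-CoA synthetase of liver, was at 43.2 and 44.0 CPM in DMSO, 89.6 and 82.3 in 3C and 80.7 and 92.3 in 5C. The treated groups overlapped each other and lay above DMSO. Acsl1 rose 1.93-fold with 3C and 2.01-fold with 5C (adjusted p = 8.02e-05 and 4.21e-05), on either side of the limit that made it a call. Its log2 fold change with 5C was 1.01 over all libraries, 0.98 without DMSO replicate 1 and 0.89 without 5C replicate 2, so the call was lost without either of these, and with 3C it became 1.01 without 3C replicate 2.

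The carnitine shuttle, which carries long acyl chains into mitochondria, moved least. Cpt1a, the liver form of the outer membrane enzyme and its controlled step, was at 233 and 238 CPM in DMSO, 312 and 297 in 3C and 276 and 299.7 in 5C. It rose 1.26-fold with 3C (adjusted p = 0.00977) and 1.24-fold with 5C (adjusted p = 0.0132). Slc25a20, the carnitine carrier of the inner membrane, rose 1.38-fold and 1.49-fold, and Cpt2, the inner membrane transferase, rose 1.33-fold with 5C (adjusted p = 0.012), while its 1.21-fold difference with 3C did not pass (adjusted p = 0.0717). Its 5C to 3C difference was 0.13 on the log2 scale, with a 95% interval of -0.08 to 0.35. Crat, which acts on short acyl chains, fell slightly with 3C (log2 fold change -0.27, adjusted p = 0.0196), and its value with 5C was -0.08 (adjusted p = 0.427). Several of these small changes did not pass in fits with 1 library left out, which have fewer residual degrees of freedom. Their log2 fold changes kept their sign in such fits. They ran from 0.23 to 0.38 for Cpt1a and 0.30 to 0.53 for Cpt2 with 5C. With 3C they ran from 0.30 to 0.37 for Cpt1a, 0.39 to 0.55 for Slc25a20 and -0.30 to -0.25 for Crat. Cpt1a no longer passed with 5C without 5C replicate 2 (adjusted p = 0.0844) or with 3C without 3C replicate 1 (0.108) or 2 (0.0522), Cpt2 with 5C without DMSO replicate 2 (0.0514) or 5C replicate 1 (0.0654), Slc25a20 with 3C without 3C replicate 1 (0.0607), and Crat without DMSO replicate 1 (0.0575), 3C replicate 1 (0.163) or 3C replicate 2 (0.0973).

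Cpt1b and Cpt1c, the muscle and brain forms, passed in neither comparison. Cpt1b was at 1.12 and 1.15 CPM in DMSO, 2.72 and 4.32 in 3C and 0.782 and 3.42 in 5C, so that the 5C libraries lay on both sides of DMSO. Its log2 fold change with 5C, 0.92, became -0.53 without 5C replicate 2 and 1.62 (adjusted p = 0.0212) without 5C replicate 1. With 3C it was 1.60 (adjusted p = 0.122) and passed without 5C replicate 1 or 2 (adjusted p = 0.0107 and 0.0135). Of the Cpt1b transcript, 82.9% of 50-base words are shared with the overlapping gene Gm44502, so its counts are uncertain.

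Within mitochondria all 11 members of the beta-oxidation spiral rose in both comparisons, and their libraries did not overlap with those of DMSO. Log2 fold changes ran from 0.32 to 1.29 with 5C and from 0.41 to 0.86 with 3C. Acaa2, the mitochondrial thiolase that ends the cycle, had the highest mean FPKM and the largest fold of the spiral, with 103 and 93.3 CPM in DMSO, 183 and 182 in 3C and 237 and 237 in 5C. The groups formed 3 steps without overlap, and Acaa2 was the one member of the spiral past the fold limit, with 2.44-fold in 5C (log2 fold change 1.29, SE 0.0695, adjusted p = 2.27e-06) and 1.82-fold in 3C (adjusted p = 3.05e-05).

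The acyl-CoA dehydrogenases, which take the first step for chains of different length, all rose. With 5C, the 95% intervals of the log2 fold change were 0.65 to 0.93 for Acadvl and 0.54 to 0.86 for Acadm, and 0.22 to 0.51 for Acadl and 0.12 to 0.52 for Acads. With 5C and 3C, Acadvl for very long chains rose 1.73-fold and 1.45-fold, Acadm for medium chains 1.62-fold and 1.53-fold, Acadl 1.29-fold and 1.33-fold, and Acads for short chains 1.25-fold and 1.48-fold. Both subunits of the trifunctional protein, Hadha and Hadhb, rose 1.44-fold and 1.48-fold with 5C and 1.42-fold and 1.34-fold with 3C. Hadh, the short chain hydroxyacyl-CoA dehydrogenase, was at 1.73-fold and 1.74-fold. Decr1 and Eci1, which deal with the double bonds of unsaturated chains, rose 1.84-fold and 1.66-fold with 5C and 1.48-fold and 1.55-fold with 3C, and Etfdh, which hands the electrons to the respiratory chain, rose 1.54-fold and 1.49-fold. These adjusted p-values ran from 2.06e-05 (Acadvl with 5C) to 0.0252 (Acads with 5C). The rise of Acads with 5C did not pass without DMSO replicate 1 (adjusted p = 0.131), 5C replicate 1 (0.134) or 5C replicate 2 (0.0521). Summed FPKM of the 11 genes was 391 ± 15.7 in DMSO, 598 ± 14.2 in 3C and 635 ± 18.6 in 5C (SD, n = 2 each).

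In peroxisomes, which shorten very long chains and make hydrogen peroxide, Ehhadh and Acaa1b were called and the other four members rose within the limit. Ehhadh, the bifunctional enzyme and a classic PPARA target, was at 15.8 and 12.7 CPM in DMSO, 44.6 and 40.4 in 3C and 74.5 and 87.2 in 5C. It was 2.91-fold higher with 3C (adjusted p = 3.4e-05) and 5.74-fold higher with 5C (adjusted p = 1.63e-06). Acaa1b, a peroxisomal thiolase, was at 6.40 and 6.52 CPM in DMSO, 30.5 and 29.2 in 3C and 64.0 and 59.3 in 5C. Its fold was 4.51 with 3C (adjusted p = 1.71e-06) and 9.66 with 5C (adjusted p = 2.1e-07). In both genes the order was DMSO, 3C, 5C with no overlap.

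Acaa1a, the other thiolase of the pair, hardly followed its partner. It rose 1.24-fold with 3C and 1.22-fold with 5C (adjusted p = 0.00736 and 0.0104), and did not pass with 3C without 3C replicate 1 (0.0676) or 2 (0.0770), or with 5C without 5C replicate 1 (0.0667). In FPKM the ratio of Acaa1a to Acaa1b was 17.2 ± 0.786 in DMSO, 4.79 ± 0.235 in 3C and 2.09 ± 0.268 in 5C (SD, n = 2 each), with no overlap between groups. The pair shares sequence, 14.5% of the 50-base words of Acaa1b and 10.3% of those of Acaa1a, and reads from the shared part may be split between them. Eci2, an enoyl-CoA isomerase, had the highest mean FPKM of the peroxisomal members and was at 95.6 and 96.8 CPM in DMSO, 189 and 173 in 3C and 178 and 182 in 5C. It rose 1.84-fold and 1.90-fold. Hsd17b4, the second bifunctional enzyme, rose 1.37-fold with 3C and 1.39-fold with 5C. Pex11a, which promotes peroxisome division, rose 1.47-fold and 1.99-fold (adjusted p = 0.00454 and 0.000123), with the latter just inside the fold limit and past it without DMSO replicate 1 (log2 fold change 1.04) or 5C replicate 1 (1.03).

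**Figure D2:**
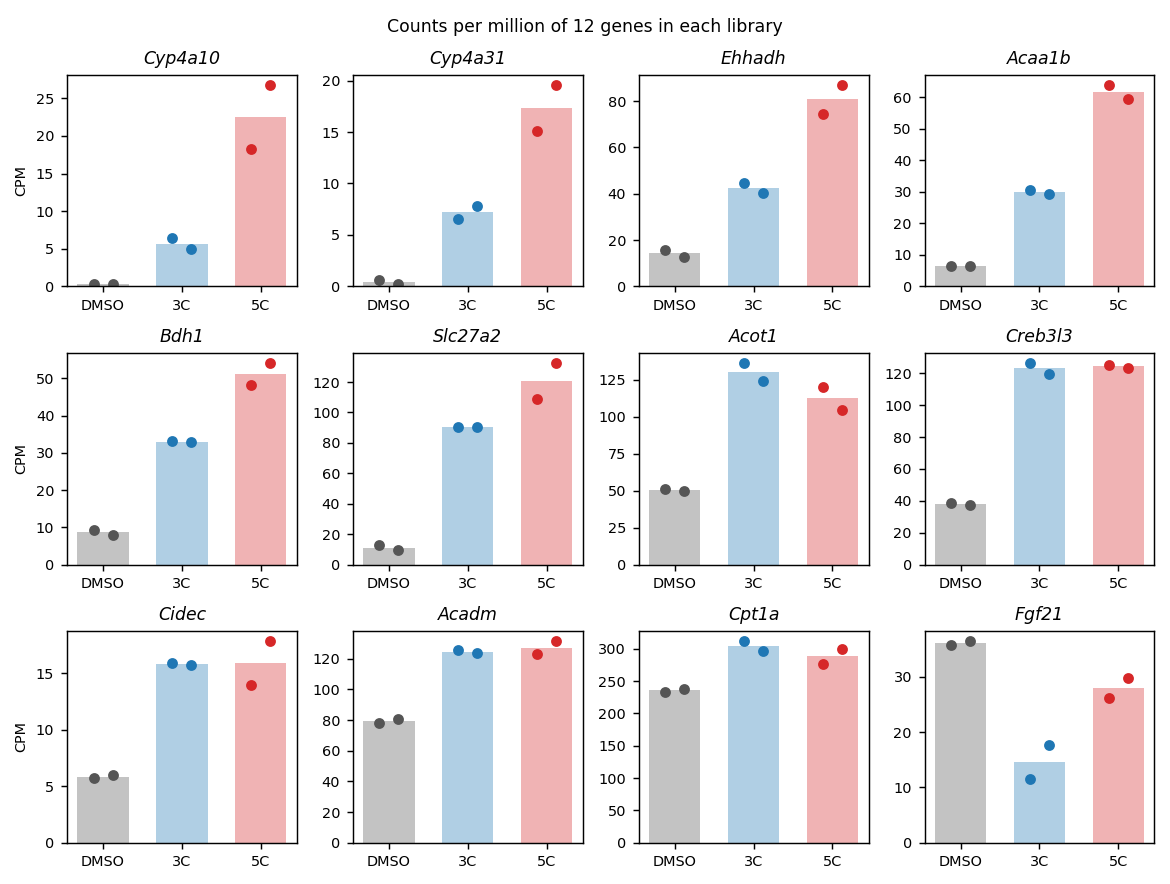
CPM (vertical axes, from 0, on a scale of its own in each panel) of 12 genes in each library, with 1 point per library and bars at the mean of the 2 libraries of DMSO (grey), 3C (blue) and 5C (red). Cyp4a10, Cyp4a31, Ehhadh, Acaa1b, Bdh1 and Slc27a2 climb from DMSO over 3C to 5C, Acot1, Creb3l3, Cidec, Acadm and Cpt1a are near each other in both cocktails, and Fgf21 is lowest in 3C.

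The omega oxidation genes showed the steepest differences from the lowest levels. Cyp4a enzymes are cytochrome P450 omega hydroxylases and standard readouts of PPARA activity in mouse liver. Cyp4a10, Cyp4a14, Cyp4a31 and Cyp4a32 lie together on chromosome 4 between 115343397 and 115479704 in GRCm39. Cyp4a10 stood at 0.372 and 0.288 CPM in DMSO, 6.37 and 4.97 in 3C and 18.3 and 26.8 in 5C. Counts in DMSO were 25 and 19, a little over the floor of 12. Its log2 fold change was 4.06 (SE 0.286, adjusted p = 1.52e-05) with 3C and 6.11 (SE 0.296, adjusted p = 1.24e-06) with 5C.

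Cyp4a31 was at 0.625 and 0.273 CPM in DMSO, 6.58 and 7.81 in 3C and 15.1 and 19.6 in 5C. Its log2 fold changes were 3.96 with 3C and 5.29 with 5C (adjusted p = 4.45e-05 and 7.41e-06). Both genes formed 3 groups without overlap. Cyp4a32 was at 0.253 and 0.106 CPM in DMSO, 2.97 and 1.14 in 3C and 2.61 and 3.23 in 5C, so the cocktails overlapped. It was called in both, with log2 fold changes of 3.47 (SE 0.584) and 4.03 (SE 0.59) and adjusted p = 0.0023 and 0.000852.

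Cyp4a14 had 14 and 0 counts in DMSO, or 0.208 and 0 CPM, against 1.77 and 1.13 CPM in 3C and 4.79 and 6.89 in 5C. The call with 5C (log2 fold change 5.80, 95% interval 3.56 to 8.04, adjusted p = 0.00409) held in the alternatives that tested the gene, which the filter of at least 10 counts in every library did not. That with 3C (3.74, 95% interval 1.55 to 5.93, adjusted p = 0.0265) was lost without 3C replicate 1 (adjusted p = 0.137), 3C replicate 2 (0.0837), 5C replicate 1 (0.0628) or 5C replicate 2 (0.0674), with DESeq2 (0.0568), with a replicate block (0.0516), in a fit to only the 4 libraries compared (0.0541) and with all genes of at least 1 count (0.0513). It also fell within the fold limit on log2(FPKM + 1). Without DMSO replicate 1 and 2 in turn, the log2 fold change was 11.7 and 4.83 with 5C, and 9.59 and 2.77 with 3C. The fits without replicate 1 set the cocktails against a DMSO library with no count, so their folds depend on the prior count and are no bounds. Cyp4a12a, which male liver makes in quantity, had 4 and 0 counts in DMSO and stayed at 0.257 and 0.337 CPM in 3C and 0.420 and 0.419 in 5C. Against the floor per library its mean was at least 1.65-fold higher with 3C (17 and 23 counts) and at least 2.32-fold higher with 5C (29 and 29). These bounds leave out counting error in the treated libraries. Cyp4a12a was not called (adjusted p = 0.0956 and 0.0501). Summed FPKM of the 5 genes was 0.453 ± 0.267, 6.98 ± 0.946 and 20.4 ± 4.20 in DMSO, 3C and 5C (SD, n = 2 each). Because these genes share sequence, with 46.9% of the 50-base words of Cyp4a12a also found in other genes, the split among them is uncertain except for Cyp4a14 (0.245%).

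Bdh1, which turns acetoacetate into the ketone body beta-hydroxybutyrate, was the ketogenesis member. It was at 9.41 and 7.99 CPM in DMSO, 33.1 and 32.8 in 3C and 48.2 and 54.2 in 5C. The 3 groups did not overlap, and Bdh1 was 3.71-fold higher with 3C (adjusted p = 7.67e-06) and 5.96-fold higher with 5C (adjusted p = 9.14e-07).

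Of the 5 acyl-CoA thioesterases, 4 were called higher in both cocktails. Acot1, the cytosolic PPARA target, was at 51.3 and 49.7 CPM in DMSO, 136 and 124 in 3C and 120 and 104 in 5C. It was 2.52-fold higher with 3C and 2.25-fold higher with 5C (adjusted p = 7.98e-06 and 9.75e-06). Acot2, its mitochondrial neighbour on chromosome 12, was at 137 and 124 CPM in DMSO, 158 and 151 in 3C and 151 and 125 in 5C. The 5C libraries of Acot2 overlapped DMSO, with log2 fold changes of 0.21 for 3C (adjusted p = 0.138) and 0.10 for 5C (adjusted p = 0.489). The FPKM ratio of Acot2 to Acot1 was 2.63 ± 0.176 in DMSO, 1.22 ± 0.0489 in 3C and 1.27 ± 0.0403 in 5C (SD, n = 2 each). Acot1 shares 18.8% and Acot2 25.3% of 50-base words with other genes, so their split is uncertain as well.

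The remaining thioesterases were of lower level. Acot4, a peroxisomal enzyme, was at 8.64 and 7.69 CPM in DMSO, 20.1 and 20.0 in 3C and 19.9 and 21.9 in 5C, which was 2.40-fold and 2.59-fold higher (adjusted p = 8.99e-05 and 4.08e-05). Acot3, also peroxisomal, was at 0.491 and 0.228 CPM in DMSO, 1.90 and 2.21 in 3C and 2.19 and 2.77 in 5C. Its log2 fold changes were 2.48 (SE 0.427, adjusted p = 0.00259) and 2.80 (SE 0.429, adjusted p = 0.00112). Acot3 and Acot4 overlap the annotated gene Gm49366 on the same strand, and reads there cannot be told apart.

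Acot12, a cytosolic enzyme that splits acetyl-CoA, was at 3.29 and 1.00 CPM in DMSO, 9.57 and 8.62 in 3C and 13.8 and 14.2 in 5C. The DMSO libraries differed by more than those of either cocktail. It was called with 5C (log2 fold change 2.73, SE 0.496, adjusted p = 0.00881) and with 3C (2.05, SE 0.488, adjusted p = 0.0279), and the 3C call was lost without 3C replicate 1 (adjusted p = 0.135), 3C replicate 2 (0.118), 5C replicate 1 (0.0637) or 5C replicate 2 (0.0662). Without DMSO replicate 1 and 2 in turn, the log2 fold change with 5C was 3.81 and 2.12, and with 3C 3.14 and 1.45.

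On the lipid droplet, Plin2, the main coat protein, was the member with the highest FPKM in every group (264 in DMSO, 336 in 3C and 290 in 5C). Its CPM was 486 and 542 in DMSO, 693 and 684 in 3C and 599 and 587 in 5C. It rose 1.31-fold with 3C (adjusted p = 0.00544, or 0.0540 without 3C replicate 1), and the 1.17-fold difference with 5C did not pass (adjusted p = 0.0571). Cidec, which fuses droplets, was at 5.70 and 6.01 CPM in DMSO, 15.9 and 15.7 in 3C and 14.0 and 17.8 in 5C. It was 2.64-fold and 2.76-fold higher (adjusted p = 0.000211 and 0.000132), and the cocktails overlapped.

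Among the secreted factors, Fgf21 went against the rest. Fgf21 is a fasting hormone of the liver, a PPARA target and also a gene of the integrated stress response. It was at 35.6 and 36.4 CPM in DMSO, 11.6 and 17.7 in 3C and 26.1 and 29.7 in 5C. The 3 groups did not overlap, and 3C was lowest. Fgf21 was the only member called lower in any comparison, with 3C (log2 fold change -1.33, SE 0.185, adjusted p = 0.00107), and this call held in every alternative tried. With 5C the log2 fold change was -0.35 (SE 0.181, adjusted p = 0.203). Angptl4, an inhibitor of lipoprotein lipase, was at 93.6 and 88.6 CPM in DMSO, 148 and 155 in 3C and 159 and 146 in 5C, which was 1.63-fold and 1.70-fold higher (adjusted p = 9.31e-05 and 4.27e-05).

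Creb3l3, a membrane-bound transcription factor of the liver that acts with PPARA in fasting, was at 38.6 and 37.4 CPM in DMSO, 127 and 120 in 3C and 125 and 123 in 5C. It was 3.17-fold and 3.32-fold higher (adjusted p = 1.48e-06 and 4.02e-07), and the 5C libraries lay between those of 3C. Vnn1, a pantetheinase that recycles a precursor of CoA, rose 1.62-fold with 3C and 1.70-fold with 5C (adjusted p = 0.000303 and 0.000135).

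**Figure D3:**
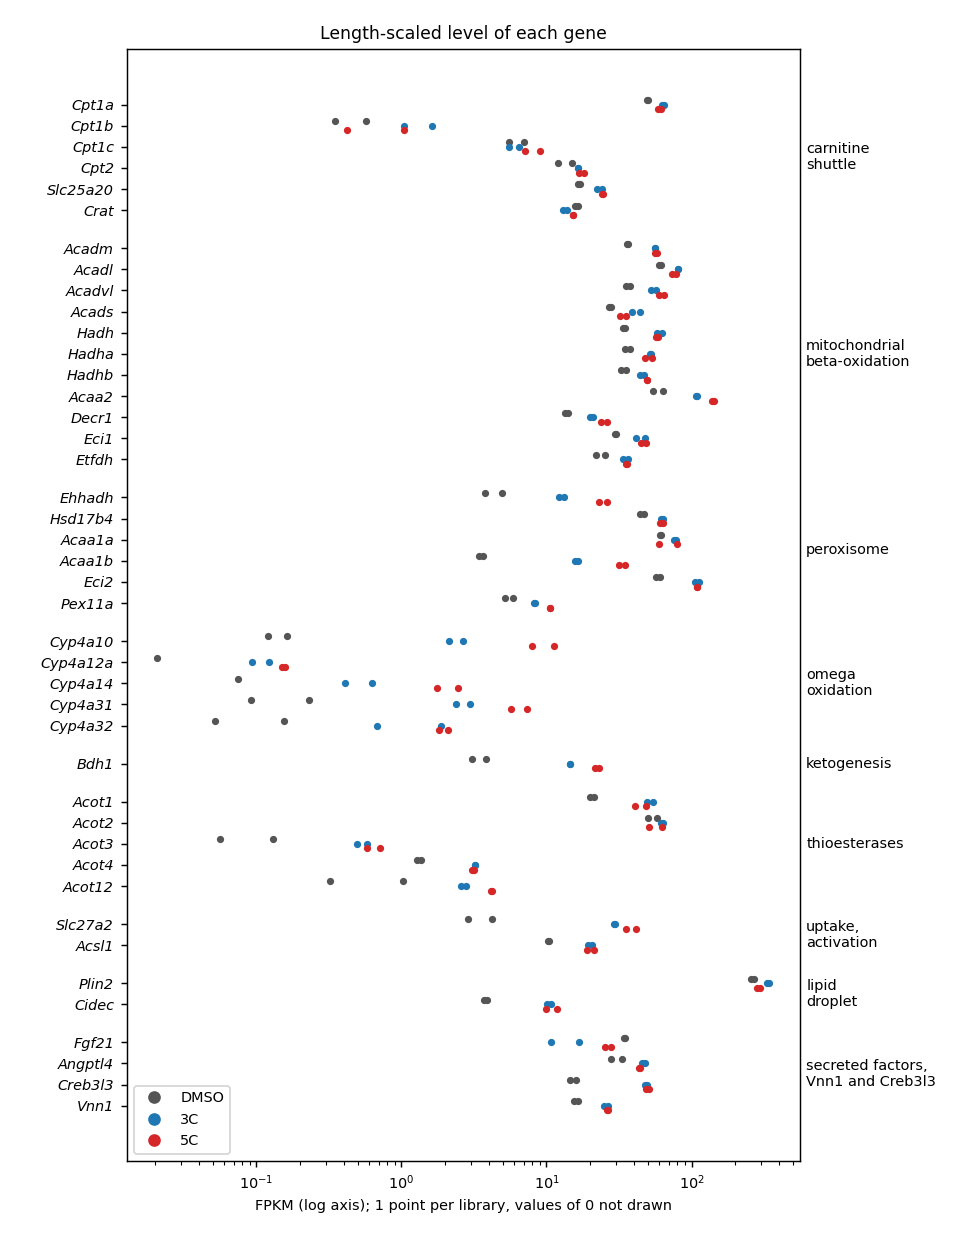
Deposited FPKM of each member (horizontal log axis), with 1 point per library in grey for DMSO, blue for 3C and red for 5C and values of 0 left out. Plin2 is furthest right in every group, the genes of mitochondrial beta-oxidation lie between 13.7 and 141 in group means, and the Cyp4a genes and Acot3 are furthest left in DMSO.

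Scaled for length, the order of levels was led by Plin2 in all groups, at 23.4% of the summed FPKM of the 42 members in DMSO, 20.0% in 3C and 16.8% in 5C. In DMSO it was followed by Acaa1a (60.9 ± 0.379 FPKM), Acadl (60.4 ± 1.18), Acaa2 (59.0 ± 6.27) and Eci2 (58.4 ± 2.70; SD, n = 2 each). Acaa1a, Acadl and Eci2 lay within 1 SD of Acaa2, as did Acot2, which came next (54.2 ± 5.70). In 5C Acaa2 (141 ± 3.23) and Eci2 (109 ± 0.189) came next. Cyp4a12a was lowest in every group, at 0.0104, 0.108 and 0.154 FPKM in DMSO, 3C and 5C. Summed FPKM of the 42 was 1131 ± 31.4 in DMSO, 1681 ± 16.1 in 3C and 1727 ± 42.8 in 5C.

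Few members were called between 3C and 5C, which holds forskolin and salidroside beside the 3 shared compounds. The shares of members called higher and risen were still above those of all genes. With 5C against 3C, 3 of 42 were called higher (2.16% of all genes) and 0 lower (0.852%, or 3.01% in either direction), and 10 rose and 0 fell on adjusted p alone (7.33% and 5.33% of all genes, 12.7% together). The median log2 fold change was 0.11 beside -0.0110 over all genes. Libraries of 5C and 3C did not overlap in CPM for 25 members. The fitted log2 fold change was positive for 20 of these and negative for 5. Of all genes, 23.2% lay above and 34.8% below by CPM itself, so the directions are not counted alike. Hsd17b4, among the 20 with a log2 fold change of 0.025, was at 185.8 and 183.4 CPM in 5C, below 186.1 and 189.7 in 3C. The called genes were Cyp4a10 (4.13-fold, log2 fold change 2.04, SE 0.228, adjusted p = 0.00089), Acaa1b (2.14-fold, 1.10, SE 0.0888, adjusted p = 0.000258) and Cyp4a31 (2.50-fold, 1.32, SE 0.274, adjusted p = 0.0142). Leaving out 3C replicate 1, 3C replicate 2 or 5C replicate 2 took the Cyp4a31 call away (adjusted p = 0.129, 0.0738 and 0.123). Cyp4a14 had nearly the same fold as Cyp4a10 (4.19, log2 fold change 2.07) with a wider 95% interval of 0.32 to 3.81, and did not pass (adjusted p = 0.134). It passed without DMSO replicate 1 (adjusted p = 0.00495) or DMSO replicate 2 (0.00459), in the fit to only the 4 libraries compared (0.00495), with limma at pseudocounts of 1 and 0.1 (0.00741 and 0.0307) and, as an alternative added after the values were known, with counts divided by 4 (0.00791).

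The others that rose within the fold limit were Ehhadh (log2 fold change 0.98, adjusted p = 0.00143), Fgf21 (0.98, adjusted p = 0.0105), Bdh1 (0.69, adjusted p = 0.00409), Pex11a (0.44, adjusted p = 0.025), Acaa2 (0.43, adjusted p = 0.0043), Decr1 (0.32, adjusted p = 0.0356) and Acadvl (0.25, adjusted p = 0.0321). Ehhadh was past the fold limit without 3C replicate 1 (1.05) or 5C replicate 1 (1.10). Fgf21 passed it without 3C replicate 2 (1.32, adjusted p = 0.00435) or 5C replicate 1 (1.08, adjusted p = 0.0417), and without 3C replicate 1 it was at 0.71. Without 5C replicate 2 it was at 0.87 and did not pass (adjusted p = 0.0899). Acadvl and Pex11a did not pass without any one of the 4 treated libraries (adjusted p = 0.117 to 0.294 and 0.0770 to 0.167), Decr1 without 3C replicate 1, 3C replicate 2 or 5C replicate 2 (0.178 to 0.232), and Acaa2 without 3C replicate 1 or 2 (0.0556 and 0.0542). Ehhadh and Bdh1 passed with any one library left out. The rise of Fgf21 was a smaller distance below DMSO, not a level above it.

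For most members the data bounded the difference between the cocktails. Its 95% interval lay within 1 on the log2 scale for 31 of 42 members and within 0.5 for 25. No carnitine shuttle gene, thioesterase, uptake gene or droplet gene passed the test. Intervals were -0.20 to 0.14 for Cpt1a, -0.35 to 0.02 for Acot1, -0.08 to 0.21 for Creb3l3, -0.28 to 0.41 for Cidec and -0.34 to 0.01 for Plin2. Slc27a2 was at 0.47, with an interval of 0.12 to 0.81 and adjusted p = 0.089. The widest intervals were those of Cyp4a12a (-1.78 to 2.87), Cyp4a14 (0.32 to 3.81) and Cpt1b (-2.14 to 0.77). Cpt1b was called lower (-2.14, adjusted p = 0.0386) without 5C replicate 2 and stood at 0.02 without 5C replicate 1.

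**Figure D4:**
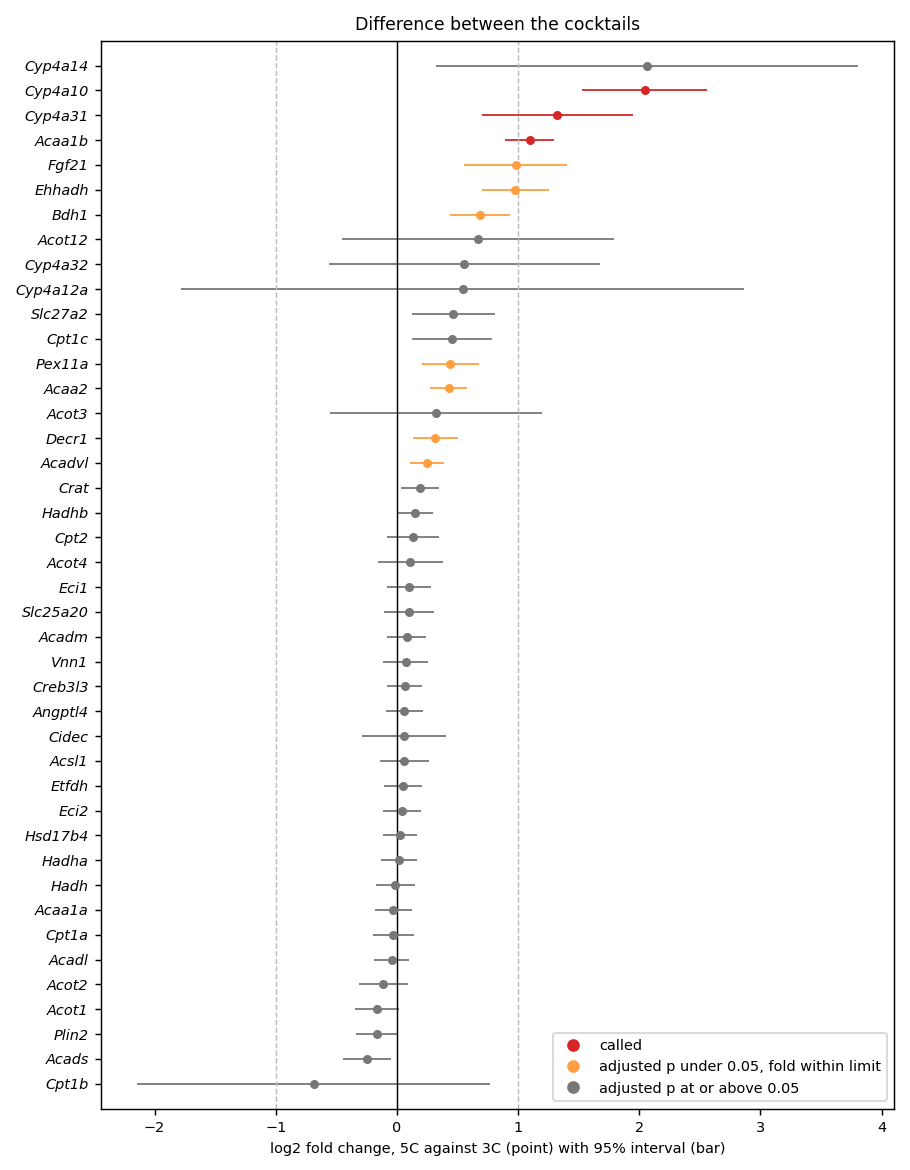
Log2 fold change of 5C against 3C (horizontal axis) for the 42 members in order of size, with bars of the 95% interval and dashed lines at -1 and 1. Red points are the 3 called genes, orange points the 7 that passed the test within the fold limit, and grey points the 32 that did not pass, most of which lie close to 0.

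The receptor itself was higher in both cocktails. Ppara was at 5.18 and 4.20 CPM in DMSO, 21.4 and 18.1 in 3C and 13.1 and 16.9 in 5C. It was 4.12-fold higher with 3C (log2 fold change 2.04, SE 0.182, adjusted p = 5.5e-05) and 3.23-fold higher with 5C (1.69, SE 0.181, adjusted p = 0.000125). Both 3C libraries lay above both 5C libraries, and the difference did not pass (5C against 3C -0.35, SE 0.172, adjusted p = 0.26). Of the 17 receptors, partners and coregulators, 3 were called higher and 0 lower in each cocktail, and 0 in either direction between the cocktails. Beside Ppara these were Ppargc1a, a coactivator of oxidative genes, at 3.00-fold with 3C and 2.30-fold with 5C, and Rxrg. Rxrg was at 0 in DMSO, 0.362 and 0.0586 CPM in 3C and 0.304 and 0.433 in 5C. Its level in 3C replicate 2 was under the floor, so the call with 3C rests on replicate 1. With 5C it was at least 2.04-fold higher than the DMSO floor. Over all genes 7.3% were called higher and 4.42% lower with 5C, and 5.83% and 3.62% with 3C. The 17 genes as a list moved both ways, with a median log2 fold change of -0.08 with 5C and -0.04 with 3C. On adjusted p alone 5 rose and 4 fell with 5C (15.6% and 13.1% of all genes), and 6 and 3 with 3C (12.7% and 11.8%).

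Other genes of the same routes numbered 124 with the receptors included, of which 118 were tested. With 5C 24 were called higher and 3 lower (7.3% and 4.42% of all genes), and with 3C 20 and 2 (5.83% and 3.62%). Between the cocktails 3 were called higher and 0 lower (2.16% and 0.852%). These shares of all genes also apply to the lists that follow. On adjusted p alone 53 rose and 14 fell with 5C (15.6% and 13.1% of all genes), and 52 and 10 with 3C (12.7% and 11.8%). Among 17 other mitochondrial genes, 6 were called higher and 1 lower with 5C and 3 and 1 with 3C. Acsm3 and Acsm5, acyl-CoA synthetases for medium chains, were 9.99-fold and 4.93-fold higher with 5C, and 7.02-fold and 3.45-fold with 3C. Acsm1, of the same family, was under the floor in DMSO and at least 19.9-fold higher with 5C and at least 5.45-fold with 3C. Ucp2, an inner membrane carrier, was called lower in both (log2 fold change -1.10 and -1.04).

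Among 34 other peroxisomal genes, 3 were called higher and 1 lower with 5C and 2 and 1 with 3C, shares near those of all genes (7.3% and 4.42%, and 5.83% and 3.62%). Scp2, a peroxisomal thiolase and sterol carrier, was 2.45-fold higher with 5C, and Acox2, the oxidase for bile acid precursors, 2.63-fold higher with 3C. Abcd2, a transporter of very long chain acyl-CoA, was called lower in both (log2 fold change -1.46 with 5C and -1.74 with 3C).

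Of 9 tested of 11 other omega oxidation genes, 2 were called higher with 5C and 3 with 3C, with Cyp4f15 (10.6-fold and 8.50-fold) and Cyp4f14 (6.76-fold and 7.29-fold) in both and Cyp4b1 (2.23-fold) with 3C. The 8 other ketone body genes held 2 higher and 1 lower with 5C and 1 higher with 3C. With 5C, Acat1, the mitochondrial acetoacetyl-CoA thiolase, was 2.17-fold higher and Slc16a6, a transporter for ketone bodies, lower (log2 fold change -1.10). One of 8 tested of 10 other thioesterase genes was called in each cocktail, Baat, which joins bile acids to amino acids (17.9-fold with 5C and 12.4-fold with 3C). One of 10 other uptake and activation genes was called in each, Slc27a5, the bile acyl-CoA synthetase, at 0.253 and 0.410 CPM in DMSO, 3.65 and 3.14 in 3C and 17.6 and 16.4 in 5C. Slc27a5 was also called between the cocktails (5.18-fold, adjusted p = 0.000381).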

How the data were processed

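RNA-seq profiles of 6 libraries, 2 per group, were used. Per the labels, libraries were made with a NEBNext Ultra kit, and the submitters' processing notes name Subread, featureCounts, DESeq2 and the GRCm39 build. The step that aligned the reads, the annotation and the use of strand are not given in the sources used here, so reads of genes that overlap on opposite strands cannot be told apart. The count table deposited by the authors holds estimated counts per gene, whole numbers without normalization, for 52323 genes. Low values of 4 (4816 entries), 8 (2323) and 12 (1335) were more frequent than the values on either side, so a fragment was assumed to be 4 units. Values of 1 (6338 entries), 2 (3119) and 3 (3121) were also common, so the assumption does not hold for every entry. The floor of 3 fragments is 12 units (0.173 to 0.182 CPM), and lower bounds rest on this assumption. Each bound divides the treated mean by the DMSO floor, so bounds and floors cover only counting error in DMSO. The second table deposited by the authors holds FPKM, scaled for gene length and library total, for 52327 genes.

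The members, the lists of other pathway genes and of markers, and the tests were chosen with earlier results of these data known. Library totals and values were taken from the estimated counts as deposited. edgeR 4.0.16 in R 4.3.3 was used for quasi-likelihood F tests (TMM, filterByExpr on group, robust) over all 6 libraries, with 3 residual degrees of freedom, a common coefficient of variation of 18.4% and Benjamini-Hochberg adjustment over 19135 genes. Calls needed adjusted p under 0.05 with a log2 fold change beyond 1 in either direction. Adjusted p-values are from this test where no other tool is named. SE is the value implied by F, and group values are means with the SD of 2 libraries. Library values are given for members called in any comparison and for the member of highest mean FPKM in each role, other members as ranges or folds. Of the other lists, at most 3 called genes of largest fold per comparison are named, and Ppara. One of 10 hepatocyte markers is not analysed here, and some genes of the other lists are counted but not reported here by name.

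Alternatives were RLE and upper quartile scaling, 2 other count filters, DESeq2 1.42.0, fits to the 4 libraries compared, a replicate block, no fold limit, limma 3.58.1 on log2(FPKM + 1) and log2(FPKM + 0.1) for genes of at least 0.1 FPKM in 2 libraries, and leaving out each library. Counts divided by 4, and the search for the closest repeat, were added once values were known. Gene positions and starts are from GENCODE for GRCm39, which matched all 42 members. Shared sequence is the percent of 50-base words of a gene's longest transcript that occur in another gene. At 10% or more, found for 12 members, counts are treated as uncertain (also Slc25a20, 11%, and Hadhb, 17.4%). Protein sequences were not used here.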

Additional observations from a re-analysis of the deposited data

How the results depend on the processing

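Of the 34 calls of members over the 3 comparisons, 22 were tested and held under each of the 16 alternatives, those of Cyp4a14 and Cyp4a32 with 5C held in all but the filter of at least 10 counts in every library, where these genes were not tested, 10 were lost under at least 1, and none changed direction. Without the fold limit, members higher came to 35 with 5C and 35 with 3C, with 2 lower, and to 10 for 5C against 3C, and genes called to 5485, 4689 and 2423 in place of 2242, 1809 and 576. With limma on log2(FPKM + 1), which shrinks folds of low genes, 1229, 961 and 260 genes were called. Acot3 (log2 fold change 0.59 and 0.49) and Acot4 (0.83 and 0.86) then fell within the fold limit in both cocktails, as did Cyp4a32 (0.99) and Cyp4a14 (0.54) with 3C, Acaa1b (0.998) for 5C against 3C and Acsl1 (0.90, or 0.96 at a pseudocount of 0.1) with 5C. Cyp4a12a was called with DESeq2 in 5C and 3C (adjusted p = 0.0111 and 0.0404) and without DMSO replicate 1 (0.0197 and 0.0315).

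Leaving out 1 library at a time gave 15 to 18 members higher with 5C, 12 to 15 with 3C, and 2 to 5 higher and 0 to 1 lower for 5C against 3C. Genes called for 5C against 3C ranged from 381 (without 5C replicate 2) to 642. Signs near 0 turned in these refits. Ranges were -0.53 to 1.62 for Cpt1b and -0.030 to 0.21 for Acot2 with 5C, and -0.20 to 0.052 for Cpt1c with 3C. For 5C against 3C they were -0.11 to 0.039 for Cpt1a, -2.14 to 0.019 for Cpt1b, -0.079 to 0.059 for Hadh, -0.024 to 0.053 for Hadha, -0.083 to 0.014 for Acaa1a, -0.015 to 0.10 for Eci2, -0.061 to 0.16 for Acsl1 and -0.15 to 0.24 for Cidec. Signs also turned for 5C against 3C on upper quartile scaling for Hadha (-0.00065), and with limma at pseudocounts of 1 and 0.1 for Hadha (-0.033 and -0.033), Hsd17b4 (-0.015 and -0.015), Acot4 (-0.032 and -0.041) and Angptl4 (-0.094 and -0.10). The causes were not tested.

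Over all genes, same-numbered libraries showed no shared deviation from their group means, with r of -0.0306 (DMSO and 3C), 0.000683 (DMSO and 5C) and 0.0161 (3C and 5C). These values cannot tell whether same-numbered libraries came from the same animal or preparation. With a replicate block, 16, 13 and 3 members and 2125, 1737 and 536 genes were called in the order 5C, 3C and 5C against 3C. With counts divided by 4, an alternative added once values were known, 16, 14 and 4 members were called higher and 2220, 1831 and 648 genes were called in either direction. With 2 libraries a group and 3 residual degrees of freedom, differences of genes under about 1 CPM, such as Cyp4a12a, were poorly bounded. DMSO counts of Cyp4a genes lie near the floor, so their folds are imprecise.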

Other observations

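Of 17 other lipid droplet and lipolysis genes, 15 were tested, and 6 were called higher and 0 lower in each cocktail. Plin5, a droplet coat of oxidative tissues, was at 2.47 and 2.00 CPM in DMSO, 11.97 and 12.5 in 3C and 20.8 and 20.2 in 5C, which was 5.36-fold higher with 3C and 9.28-fold higher with 5C (edgeR adjusted p = 8.41e-06 and 1.24e-06). Cideb, a droplet protein of hepatocytes, was at 5.91 and 5.10 CPM in DMSO, 34.3 and 34.8 in 3C and 36.1 and 35.3 in 5C. Pnpla3, a lipase of the droplet surface, was under the floor in DMSO and at least 6.98-fold higher with 5C and at least 5.03-fold higher with 3C. Mgll, which completes the breakdown of triglyceride, was at 16.8 and 17.0 CPM in DMSO, 22.2 and 22.7 in 3C and 37.7 and 49.4 in 5C, and was the droplet gene called between the cocktails (2.01-fold, edgeR adjusted p = 0.00205).

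In the other marker lists the summed CPM was carried by 1 or 2 abundant genes, and the counts of calls differ from it. The 8 endothelial markers summed to 328 to 338 in DMSO, 91.7 to 125 in 3C and 160 to 249 in 5C, of which Lyve1 gave 309 to 319 in DMSO and 48.8 to 66.4 in 5C. Of 7 tested, 5 were called higher and 1 lower with 5C (median log2 fold change 4.76), and 4 and 1 with 3C (1.74), while Clec4g was at or under the floor. Cdh5, an endothelial cadherin, was at 1.25 and 1.06 CPM in DMSO and 43.3 and 72.2 in 5C. The 6 cholangiocyte markers summed to 2902 to 3385 in DMSO, 3520 to 3706 in 3C and 2389 to 2687 in 5C, mostly from Spp1. With 5C 3 were called higher and 0 lower (median 1.06), and with 3C 4 and 0 (1.53). The 10 stellate and fibroblast markers summed to 5650 to 6535, 4814 to 4858 and 7313 to 7851, mostly from Col1a1 and Col3a1, with 3 called higher and 0 lower with 5C and 2 and 2 with 3C. The 5C libraries differed in hepatocyte markers, with sums of 9690 and 14240 CPM for replicates 1 and 2.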
